A study of Rattus norvegicus with 12 samples.

Results

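In the lungs of rats kept at simulated altitude, 347 transcripts were set apart in the animals that were reoxygenated continuously for 3 h per day (C3). For 190 of them all 3 C3 libraries lay above the 9 libraries of the other groups, and for 157 all 3 lay below. Of 17254 transcripts listed, the 15435 with 1 FPKM or more in 3 or more of the 12 libraries were considered. Besides the separation of the C3 libraries, the rule asked for a difference of at least 0.3 between the mean log2(FPKM + 1) of C3 and that of the other 9 libraries. It left out transcripts for which the normoxic, the hypoxic or the intermittently reoxygenated libraries also stood apart from all others. Before this exclusion the separation and the size were met by 2.46% of the transcripts tested, 1.31% higher and 1.15% lower, and the members are 2.25% of them. Because the rule read the C3 values, the differences between C3 and the other groups are described here without a test.

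Chronic hypoxia constricts and remodels the small arteries of the lung, thickens their muscular wall and so raises pulmonary arterial pressure. The lung is a mixture of epithelial, endothelial, muscle, connective tissue and immune cells, each of which responds to oxygen through transcription factors that are degraded when oxygen is plentiful. Return to oxygen reverses part of this response and also raises the formation of reactive oxygen species.

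All groups were adult rats of the strain labelled SD, and whole lung was sampled after 2 weeks. Normoxic rats (N) were kept at 400 m and breathed 21% oxygen, while hypoxic rats (H) were kept without reoxygenation in a hypobaric chamber at 405 mmHg, which simulates an altitude of 5000 m. C3 rats lived in that chamber and received 42% oxygen in a single block of 3 h per day, and I3 rats received this gas for 3 h per day as well, but intermittently. Each group had 3 libraries, and the labels do not say that each came from a separate rat, and the p-values describe only the scatter of these libraries, part of which may be technical. The sex of the animals and the time between the last reoxygenation and sampling are not given in the sources used here. No unit is stated in the table, and its values were taken as FPKM, fragment numbers divided by transcript length and by library size, though TPM cannot be told apart. Sums of the listed values were 323894 to 330045 in the C3 libraries and 329291 to 361337 in the other 9, and depth is unknown, so no counting interval is given. The table lists Ensembl transcript identifiers with no gene names, and 0 of 47357 genes of the reference table carried a rat Ensembl identifier. The members could therefore not be named, their roles are not given, no sequence is shown, and the lung markers could not be looked up. In whole lung, a change in the number of cells of a type and a change in RNA per cell cannot be told apart.

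The members were differences of moderate size in transcripts of ordinary abundance. The absolute difference between C3 and the other 9 libraries had a median of 0.45 on the log2(FPKM + 1) scale, with quartiles of 0.37 and 0.62. It was below 0.5 for 208 members, between 0.5 and 1 for 121, and at least 1 for 18, of which 8 were higher and 10 lower in C3. In FPKM, the median ratio of C3 to the other libraries was 1.41 for the higher members and 0.662 for the lower ones. The mean level of a member over the 12 libraries had a median of 10.8 FPKM and ran from 0.558 to 314, beside a median of 7.40 FPKM for all transcripts tested. Members with a mean below 5 FPKM made up 25.1%, against 39.0% of all transcripts tested, and 26 members reached 50 FPKM. On the log2(FPKM + 1) scale a minimum difference asks for a larger ratio where values are low. By the rule a higher member cannot be at 0 in a C3 library. No lower member was listed at 0 there either, but 16 lower members had a C3 mean below 1 FPKM. Of the higher members, 2 were listed at 0 in some other library.

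**Figure D1:**
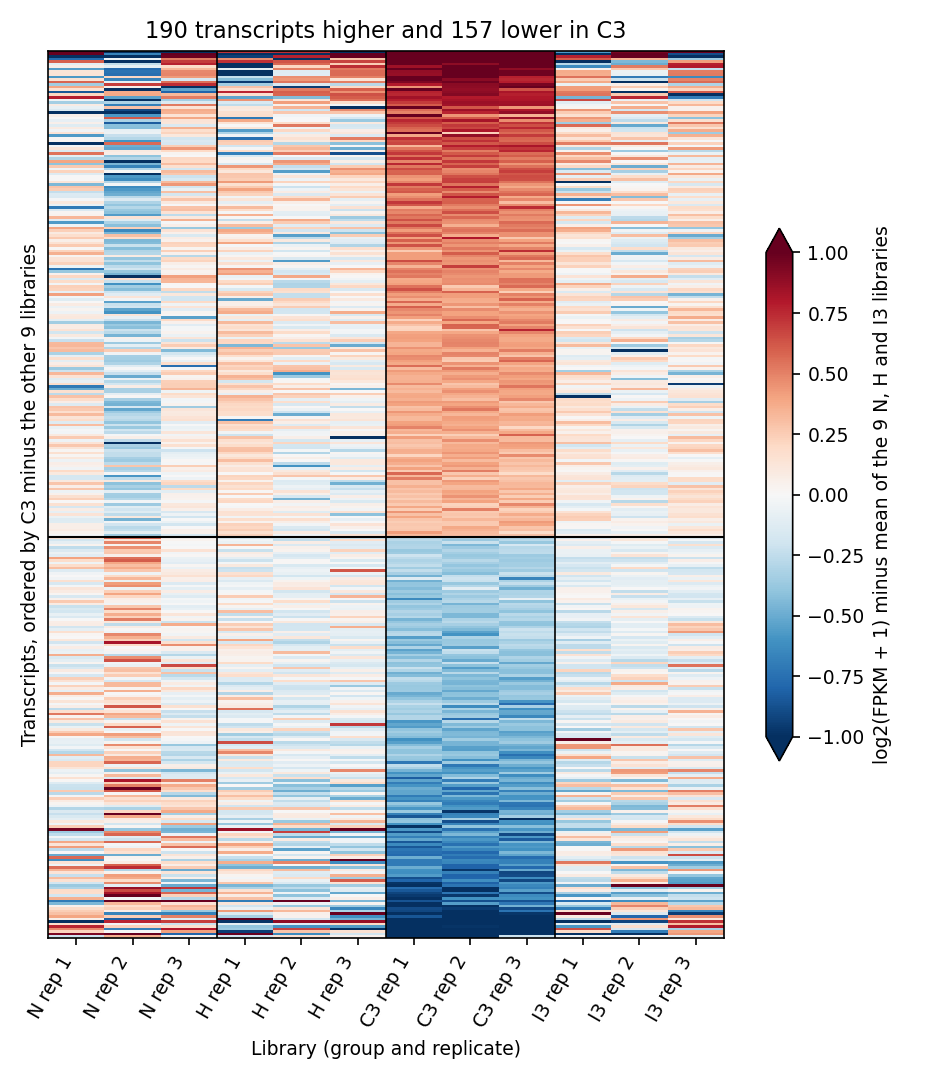
Each row is 1 of the 347 transcripts and each column 1 library, and the colour is the log2(FPKM + 1) value minus the mean of the 9 N, H and I3 libraries, cut at 1 in either direction. The 3 C3 columns are red for the 190 upper rows and blue for the 157 lower rows by the rule, and N replicate 2 takes the opposite colours in many rows.

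The largest rises combined steady C3 values with values in the other groups that were split between low and near-C3 libraries. ENSRNOT00000066101 had the largest difference of the higher members, 1.65 on the log2(FPKM + 1) scale. Its C3 libraries held 6.41, 8.58 and 8.12 FPKM, and the N libraries held 5.18, 0.037 and 0.0058 FPKM. The H libraries held 3.55, 3.58 and 0.0074 FPKM and the I3 libraries 0.85, 4.30 and 5.77 FPKM. Every other group thus held at least 1 library far below C3 and at least 1 above 3 FPKM. ENSRNOT00000009691 came next, with a difference of 1.50. It stood at 6.59, 6.22 and 6.40 FPKM in C3, at 6.14, 0.65 and 4.43 in N, at 0.30, 0.26 and 4.82 in H, and at 0, 5.66 and 0.41 in I3. Its lowest C3 library exceeded N replicate 1 by 0.015 on the log2 scale. That none of its C3 libraries was low is set by the rule, which asks that each lie above all others. A value of 0 or near 0 in a table of estimated abundances can also be a failed estimate.

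Among the lower members, the transcript with the largest difference was not low in every C3 library. ENSRNOT00000048198 was abundant, at 208 ± 41.3 FPKM in N, 198 ± 23.1 in H and 191 ± 5.26 in I3 (SD, n = 3). In C3 it stood at 8.85 and 6.08 FPKM in replicates 1 and 2 and at 170 FPKM in replicate 3, just under the lowest other library, N replicate 1 at 171 FPKM. C3 replicates 1 and 2 carried the log2 difference of -3.12 on the log2 scale, which was -4.57 without C3 replicate 3, -2.28 without replicate 2 and -2.51 without replicate 1. It was the only member with a break of at least 1 on the log2 scale within C3, and 11 members had one of at least 0.5. ENSRNOT00000039797 had the second largest difference, -1.50. It was at 1.75, 1.32 and 1.97 FPKM in C3, and ranged from 3.33 to 15.7 in N, from 3.83 to 17.8 in H and from 2.26 to 9.15 in I3. Here the C3 libraries were close together and the nearest other libraries were I3 replicates 1 and 2, at 2.26 and 2.75 FPKM.

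The cleanest separations were found by the gap between the C3 library nearest to the other groups and the nearest of the other 9 libraries. ENSRNOT00000046539 had the widest, 0.84 on the log2 scale. Its values were 7.36, 5.80 and 6.88 FPKM in C3, and all 9 other libraries lay between 13.9 and 20.4 FPKM. Its group means of 16.2 ± 2.35 FPKM in N, 16.4 ± 2.09 in H and 16.8 ± 3.09 in I3 were close to each other, against 6.68 ± 0.80 in C3 (SD, n = 3). The log2 change of this transcript in H against N was 0.02 (95% interval -0.33 to 0.37, adjusted p = 0.985 in limma), and that in I3 against N was 0.05 (-0.30 to 0.40, adjusted p = 0.938 in limma). The transcript was chosen for its wide gap, and this choice and the exclusions favour similar levels in N, H and I3. These intervals and p-values therefore only describe it and give no support that C3 alone changed. The widest gap of the higher members was 0.45, for ENSRNOT00000078102. This transcript stood at 5.30, 6.44 and 4.44 FPKM in C3, and its highest other library was I3 replicate 1 with 2.97 FPKM. The N libraries of this transcript ranged from 0.53 to 2.74 FPKM, the H libraries from 0.26 to 2.60 and the I3 libraries from 1.01 to 2.97, so the other groups overlapped widely.

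**Figure D2:**
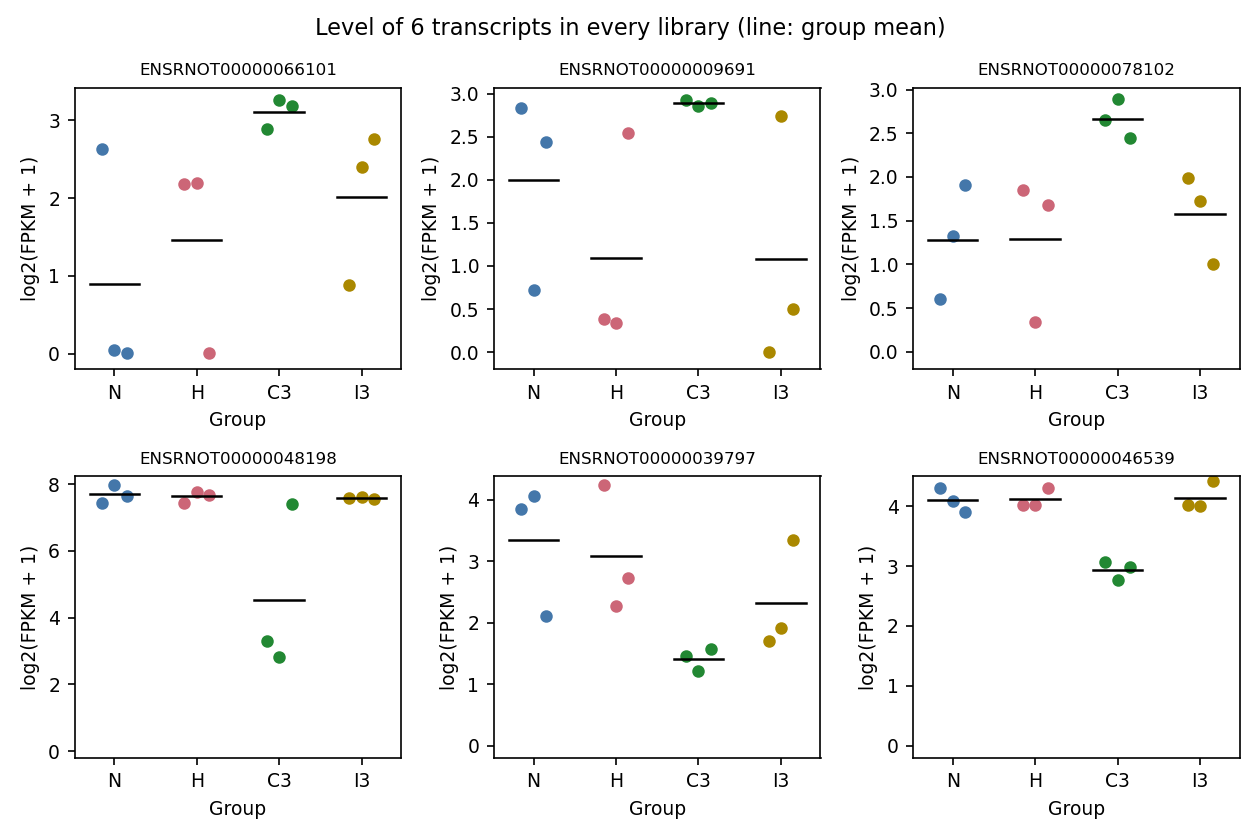
Levels of 6 transcripts as log2(FPKM + 1) in each library, grouped by exposure on the horizontal axis, with a line at the group mean. The upper row shows transcripts higher in C3 and the lower row transcripts lower in C3, and ENSRNOT00000048198 has 2 low C3 libraries and 1 at the level of the other groups.

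Such wide gaps were rare among the members. The gap had a median of 0.06 on the log2 scale, reached 0.1 for 109 of 347 members and 0.3 for 8, and was below 0.02 for 74. For 320 members the 9 other libraries held a break among themselves that was wider than their gap to C3. For 20 members the gap to C3 was the widest break among all 12 libraries. A single gap is here set against the widest of several breaks, so these counts describe the members and measure no difference from other transcripts. A break of at least 1 on the log2 scale within the other 9 libraries was found for 24 members, 17 higher and 7 lower, which is 6.92% of the members and 11.2% of all transcripts tested. In each of these 24, the C3 libraries lay closer to their nearest other library than the width of that break, and 4 to 8 of the other libraries lay on the C3 side of it. At the minimum difference, the last higher member inside had a difference of 0.31, with 90.7 ± 1.04 FPKM in C3 and a mean of 73.6 FPKM in the other 9, and the first transcript outside had 0.29, with 17.2 ± 1.42 and 13.9 FPKM (SD, n = 3). For the lower members the last inside had -0.302, with 2.22 ± 0.03 FPKM in C3 and 3.03 in the other 9, and the first outside had -0.297, with 26.5 ± 1.81 and 32.9 FPKM. A further 171 transcripts had separated C3 libraries and a smaller difference.

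Some members may not be separate measurements. A pair of higher members kept the same ratio to each other in all 12 libraries within 5%. The first of them stood at 147, 172 and 158 FPKM in C3, at 87.8, 46.9 and 112 FPKM in N, at 36.1, 73.7 and 119 in H and at 103, 76.0 and 115 in I3, and the second had nearly the same values. No other pair of members met this tolerance. Whether the pair belongs to 1 gene, or whether other members share reads, could not be read from the identifiers. StringTie, named in the submitters' processing notes, divides shared reads among transcripts by estimation. Correlations between members were taken over the 9 libraries of the other groups, which the rule limited by its bound and exclusions. Their median was 0.23 among the higher members, 0.12 among the lower ones and -0.14 between higher and lower ones. These are descriptions over 9 libraries that share sequencing and scaling, with no value for all transcripts beside them. Relative to the mean of the 9, N replicate 2 lay at -0.31 for the higher and 0.22 for the lower members. Its part in the correlations was not tested.

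Averaged over the members, the C3 libraries lay close to each other, and N replicate 2 was the library farthest from them. The rule placed all 3 C3 libraries beyond the other 9, so their similar averages are partly set by it. For 16 members the range within C3 was larger than the difference from the other 9. Relative to the mean of the other 9 libraries, the higher members lay at 0.51, 0.53 and 0.51 on the log2 scale in C3 replicates 1, 2 and 3, and the lower members at -0.57, -0.58 and -0.52. N replicate 2 lay at -0.31 for the higher and at 0.22 for the lower members, while the other 8 libraries lay between -0.02 and 0.07 and between -0.09 and 0.02. N replicate 2 was the most distant of the 9 libraries from C3 for 157 of 347 members. Over all transcripts tested it was the lowest or highest of the 9 in 37.0%, against 16.2% to 23.7% for each of the others. This share counts both ends of the 9, while the count for members takes only the end away from C3, so they are not alike. By group means, N was farthest from C3 for 212 members, H for 77 and I3 for 58. Without N replicate 2 these numbers were 151 for N, 112 for H and 84 for I3.

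**Figure D3:**
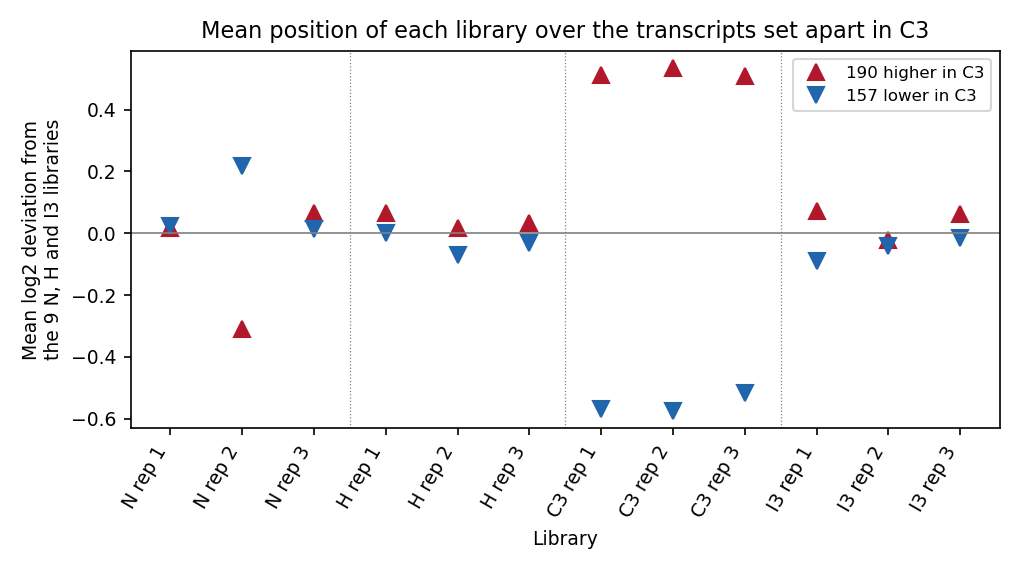
Mean deviation of each library, in log2(FPKM + 1), from the 9 N, H and I3 libraries over the 190 higher (upward triangles) and the 157 lower transcripts (downward triangles). The C3 libraries lie at 0.51 to 0.53 and at -0.58 to -0.52, N replicate 2 lies on the opposite side at -0.31 and 0.22, and the other 8 libraries lie near 0.

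By the median over the members, C3 lay somewhat farther from N than from H and I3. N includes replicate 2, the library farthest from C3, and these medians were not taken without it. For the higher members the median log2 difference was 0.52 to N, 0.41 to H and 0.41 to I3. For the lower members it was -0.52 to N, -0.43 to H and -0.42 to I3. These comparisons share the C3 libraries. Over all transcripts tested the medians were -0.04, -0.02 and -0.02. The rule chose on these differences, so no test of them is given.

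The other groups were then compared with each other over the members, which the rule limited by its exclusions and by the bound set by C3. The exclusions dropped transcripts in which N, H or I3 stood apart, 31 of them for N. Such transcripts could be among those called here. The exclusions can therefore lower the counts below, and nothing is read from low counts. In limma 0 of the 347 members differed between H and N at an adjusted p below 0.05, where 0.337% of all transcripts were called. At an unadjusted p below 0.05, 35 members differed, which is 10.1% of them against 10.4% of all transcripts. Between I3 and N limma again called 0 members, where 0.0907% of all transcripts were called. At an unadjusted p below 0.05, 34 members differed, 9.80% against 10.8% of all transcripts. Both shares were near the background. Between I3 and H 0 members were called in limma, where 0.0324% of all transcripts were called, and 7 had an unadjusted p below 0.05, which is 2.02% against 5% of all transcripts. With 1 library left out, limma called 1 member in H against N without N replicate 1, N replicate 3 or I3 replicate 2. Of all transcripts tested it then called 56, 31 and 49. In I3 against N it called 1 member without N replicate 3 or I3 replicate 1, beside 12 and 20 of all transcripts. In I3 against H it called 1 member without I3 replicate 1, beside 8 of all transcripts. The calls in H against N fell on a different member each time. Without N replicate 3, the calls in H against N and I3 against N fell on the same member, ENSRNOT00000021153. Without I3 replicate 1, those in I3 against N and I3 against H both fell on ENSRNOT00000086814. The comparisons that called the same member share a group, and nothing is read from any of these calls. The median log2 change of the higher members was 0.11 in H against N, 0.13 in I3 against N and 0.02 in I3 against H. For the lower members these values were -0.10, -0.11 and -0.02. The first 2 comparisons share the N libraries, and without N replicate 2 their medians were 0.01 and 0.002 for the higher and -0.03 and -0.06 for the lower members.

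The member nearest to a call in H against N was ENSRNOT00000003733, named after its values were seen. It held 20.1, 23.0 and 16.0 FPKM in N, 9.17, 9.22 and 9.77 in H, 12.2, 16.5 and 10.2 in I3, and 9.12, 7.22 and 7.33 in C3. The H libraries lay below all N libraries and only just above those of C3, and the I3 libraries lay between H and N, apart from I3 replicate 2, which was also above the lowest N library. Its log2 change in H against N was -0.98 ± 0.18 (SE), and it missed the threshold in limma (adjusted p = 0.0566). The change in I3 against N was -0.58 ± 0.18 (adjusted p = 0.293 in limma). In limma it passed for H against N at an adjusted p of 0.0473 when transcripts under 5 FPKM were filtered out, and at 0.0338 without I3 replicate 2. It passed under no other setting tried. Its log2 change without I3 replicate 2 was still -0.98, so only the estimated spread and the adjustment differed there.

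How often a group stood apart differed between the groups. Before the exclusions, 380 transcripts, the 2.46% given above, had C3 libraries beyond all others with the minimum difference. The same separation held for 0.615% of transcripts in H, 0.583% in I3 and 4.02% in N. The exclusions removed 33 transcripts from C3, 31 of them because N was also apart and 2 because I3 was. Applied in the same way to the other groups, the rule gave 87 transcripts for H, 86 for I3 and 576 for N. These differences between groups were not tested. Over all transcripts tested the C3 libraries were also the closest to each other, with a median SD of 0.17 on the log2 scale within C3, 0.23 within N, 0.21 within H and 0.21 within I3. The part of this spread in the counts was not tested.

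The separation was also described 1 C3 library at a time. Transcripts were chosen on 2 C3 libraries with the rule otherwise unchanged, and the third C3 library was then examined. It lay beyond the other 9 libraries on the same side for 347 of 781 transcripts when C3 replicate 1 was held out, for 331 of 638 when replicate 2 was, and for 351 of 733 when replicate 3 was, or 44.4%, 51.9% and 47.9%. Over all 3 choices the share was 47.8%, with 53.0% for transcripts higher and 42.9% for those lower in C3. The 3 choices overlap in their transcripts, and those for which the third library also lay beyond the others are largely the members themselves, so these shares give no support apart from the counts of the rule. Over all transcripts past the filter, a single C3 library lay above the other 9 in 8.54% to 9.52% and below them in 10.3% to 13.8%. The same procedure gave 26.9% for H, 25.7% for I3 and 50.1% for N. These shares were not compared by a test.

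**Figure D4:**
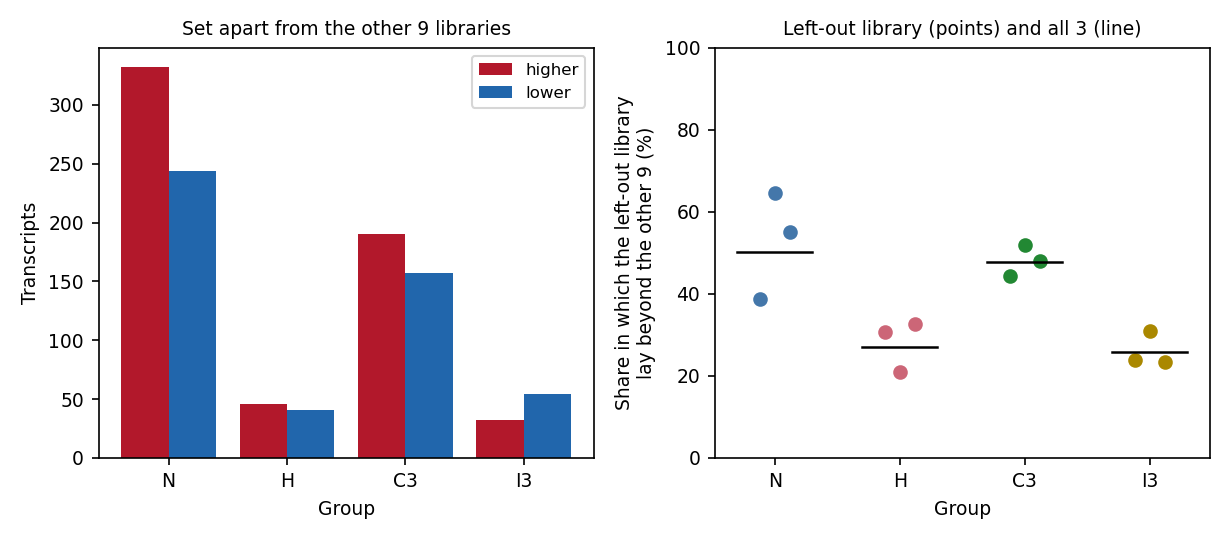
Left, number of transcripts that the same rule gives for each group, split into higher and lower (bars). Right, share of transcripts, chosen on 2 libraries of a group, for which the left-out library of that group also lay beyond the other 9, with a point for each library left out and a line for all 3 together. C3 has 347 transcripts against 87 in H and 86 in I3, and its shares lie between 44.4% and 51.9%.

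The balance of directions depended on the settings. With no minimum difference there were 242 higher and 262 lower transcripts, so the larger direction changed. It also changed without C3 replicate 1, with 387 higher and 394 lower, and without C3 replicate 3, with 329 higher and 404 lower. With median ratio scaling, which brings the typical transcript of each library to a common level, the rule gave 234 higher and 123 lower transcripts in place of 190 and 157, so the share of higher ones moved from 54.8% to 65.5%. Of the 347 members, 300 were kept under this scaling. The median of C3 minus the other 9 libraries over all transcripts moved from -0.03 to -0.01 on the log2 scale. Under each of 15 settings taken singly (this scaling, a pseudocount of 0.1, a filter at 5 FPKM, and leaving out each of the 12 libraries) 129 members were kept with their direction, 87 higher and 42 lower. The filter at 5 FPKM by itself kept 272 members. Leaving out a library cannot undo a separation, so losses there came from the size of difference, the filter or the exclusions. Of the transcripts named above for the size of their difference, each kept its direction under the scaling, the pseudocount of 0.1 and each library left out. They were chosen for large differences, so these settings could hardly reverse a direction. Sizes did move, and that of ENSRNOT00000009691 ran from 1.33 to 1.68 with 1 library left out.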

How the data were processed

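Whole-lung RNA of 12 rat samples was sequenced in 4 groups of 3, assigned from the sample titles. Per the labels' protocols, fragmented total RNA was copied from random primers with a dUTP second strand. The submitters' processing notes name cutadapt, HISAT2 2.0.5 and StringTie, and a human build that does not match the rat identifiers; the rat build and annotation used are not given in the sources used here. A single table, which the authors deposited, holds non-negative values, taken as FPKM because StringTie is named; the table states no unit, and TPM of a filtered list cannot be told apart. The lowest maximum of any transcript in the table was 0.55.

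The rule was applied to log2(FPKM + 1), with no further scaling, in Python 3.11.15. Limma 3.58.1 in R 4.3.3 fitted 1 mean per group over all 12 libraries, with a mean-variance trend and two-sided Benjamini-Hochberg adjustment over the 15435 transcripts tested. Fold changes on this scale understate those of low transcripts. Rule and fit were tested on simulated data. The members, lists and tests were chosen with earlier results of these data known. Named were the first 2 transcripts of each direction by size of difference, and the widest gap of each direction; planned gene and marker lists could not be run without gene names. Deviations from the group means correlated at -0.04 to 0.13 between libraries of the same number, so numbers were not taken as pairs. Alternatives were scaling, pseudocount, filter, size of difference, exclusions, trend, groups fitted, replicate block and libraries left out.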

Additional observations from a re-analysis of the deposited data

How the results depend on the processing

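The number of members was 347. It was 139 (72 higher and 67 lower) with a minimum difference of 0.5, and with no minimum it was 504 (242 higher and 262 lower). Leaving out 1 library gave 320 to 781 members, 178 to 387 of them higher and 142 to 404 lower; the counts of 781, 638 and 733 came without C3 replicates 1, 2 and 3, where only 2 C3 libraries have to lie beyond the others. Without H replicate 3 and I3 replicate 3 together, a setting chosen after seeing the data, there were 491 members, 267 higher and 224 lower, in a comparison with 7 other libraries. The held-out share of 47.8% was 50.3% with a filter at 5 FPKM, 48.3% with median ratio scaling, and 44.4% to 51.9% for single libraries. Counts of members called in H against N, I3 against N and I3 against H were 0, and 0 to 1 with 1 library left out. Of all transcripts tested, 52, 14 and 5 were called in these comparisons. With 1 library left out these were 19 to 58, 8 to 29 and 3 to 12. The 1 call in H against N with a filter at 5 FPKM fell in a smaller set of tests, with 272 members tested and 48 of all transcripts called. With the replicate block limma also called 0 members in each of the 3 comparisons, beside 28, 10 and 4 of all transcripts. No source ties same-numbered libraries to each other. With a pseudocount of 0.1 the differences of ENSRNOT00000066101, ENSRNOT00000009691, ENSRNOT00000078102 and ENSRNOT00000039797 were 2.79, 2.46, 1.80 and -1.87. Depth is unknown, so what it limits cannot be stated, and precision rests on the 3 libraries per group.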
